A study of Mus musculus with 10 samples.

Results

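This report describes 10 genes of reactive gliosis (Gfap, Vim, Tagln2, S100a6, Serpina3n, Timp1, Lcn2, Cd44, Osmr and Cebpd) in the retina of the rd10 mouse, among 11702 genes in the deposited gene table. The genes were chosen by name, with their behaviour in these libraries already known, so their own levels and fold changes are given as a description, without p-values. Counts of members past a test's threshold are also a description from which nothing is read. They are printed beside the share of all genes past it, except in some fits that leave out 1 library. The gene table holds 9 of the 10. Timp1 is not in it and was read from the deposited transcript counts, scaled by each library's own factor. Bulk retinal RNA of female mice was sequenced in 10 libraries. WT mice injected with DMSO gave libraries W1 to W4, rd10 mice injected with DMSO gave D1 to D3, and rd10 mice injected with halofantrine (HAL) gave H1 to H3. The rd10 mice were of the strain B6.CXB1-Pde6b rd10/J, in which a mutated Pde6b, a phosphodiesterase gene of rods, leads to rod degeneration, and the strain of the WT mice was not given in the sources used here. All mice received 1 μL into the vitreous at P10 and again at P24, either of DMSO or of 20 μM halofantrine, an antimalarial drug, and retinas were collected at P36. Batch 2 in the labels comprised 1 rd10 DMSO library (D3) with 2 halofantrine libraries (H2 and H3), and all others were of batch 1; what the batches were was not stated. The library titles also carry set names, which WT and rd10 libraries never share, so genotype and set cannot be told apart. W4 has another set name than W1 to W3, and in batch 2 D3 has another than H2 and H3. All groups had anaesthesia and the same pair of injections in common, and no uninjected retina was among the libraries.

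Müller glia, the radial glia that span the retina, and the astrocytes of its inner surface respond to injury and to photoreceptor loss by a change of state called reactive gliosis. They build up intermediate filaments (Gfap, Vim), secrete acute phase and matrix proteins (Serpina3n, Lcn2, Timp1), and raise surface receptors (Cd44, Osmr). Much of this programme is known to run through cytokines of the interleukin 6 family, their shared receptor subunit gp130 and the transcription factor STAT3. Several of these genes are not specific to glia, since microglia, vascular cells and fibroblasts also express Vim, Cd44, Timp1, S100a6 and Tagln2.

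Library depth ranged from 15512212 to 38160436 counts on genes. The library labelled WT W4 stood apart from W1 to W3. Its 13 rod markers summed to 3132 normalized CPM, against 80304 to 84824 in W1 to W3 and 3977 to 12061 in the 6 rd10 libraries. Pde6b, the gene mutated in rd10 and itself a rod gene, was at 92.7 in W4, 2692 to 2862 in W1 to W3 and 124 to 387 in rd10. The levels of W4 thus go against its label, which is in doubt, and with it the fold, SE and p of each comparison that uses W4 as WT. W4 was kept with its label, and the fits and transcript tests that hold it are also given without it. The retina's own markers were present in all libraries, with 19 of 20 Müller glia markers and 13 of 13 rod markers in the gene table. In RNA of whole retina, fewer cells of a type and less RNA per cell cannot be told apart.

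Sequences are shown for transcripts of Cd44, whose coding sequences differ, and for 2 promoters, that of Lcn2 because it held a match to C/EBP letters and that of Gfap as the usual marker of gliosis. The promoter windows came from RefSeq (build GRCm38.p6, which is not the build of the counts) and matched 9 of the 10 members, with no entry for Cebpd. They are written 5′ to 3′ on the strand of the gene, and capitals mark a match to the C/EBP letters TTGCNNAA. The Lcn2 window is chr2:32387798-32387989 on the minus strand and ends 59 bases before the RefSeq start, and the Gfap window is chr11:102897201-102897450 on the minus strand and ends at the base before the start. Part of the Lcn2 window is also an exon of the transcript Lcn2-206 in GENCODE M21.
Lcn2: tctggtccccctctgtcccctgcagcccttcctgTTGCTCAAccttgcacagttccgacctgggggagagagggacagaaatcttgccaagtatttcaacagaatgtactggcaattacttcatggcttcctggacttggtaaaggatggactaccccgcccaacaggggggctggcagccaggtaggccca
Gfap: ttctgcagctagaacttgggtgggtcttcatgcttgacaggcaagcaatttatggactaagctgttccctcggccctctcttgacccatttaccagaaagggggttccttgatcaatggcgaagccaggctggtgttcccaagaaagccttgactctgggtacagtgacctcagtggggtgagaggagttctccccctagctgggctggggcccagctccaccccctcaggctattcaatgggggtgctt
The C/EBP letters stood 216 bases before the RefSeq start of Lcn2 and in 1 of the 9 member windows of 250 bases, where 9.57% of 32536 mouse promoter windows of that length hold them on either strand. The STAT letters TTCNNNGAA and the AP-1 letters TGANTCA were found in 0 of the 9 windows, and in 7.04% and 6.73% of all windows. The TATA letters TATAAA were found in 1 (Vim, 32 bases before its start) and in 12.3% of all windows. No match of 1 motif overlapped a match of another in these windows, and a window without the letters says nothing about binding elsewhere.

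Cd44 and Gfap transcripts part inside their coding sequence. The lines that follow show, for Cd44 in the GENCODE M21 transcripts, the last 30 shared coding bases in lower case and the first 30 bases after the parting in capitals. The M21 versions of these transcripts are earlier than those counted by the authors. The Cd44 transcripts share their first 673 coding bases, and the Gfap transcripts share 1162.
Cd44-203: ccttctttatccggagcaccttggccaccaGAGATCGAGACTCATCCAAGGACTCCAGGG
Cd44-207: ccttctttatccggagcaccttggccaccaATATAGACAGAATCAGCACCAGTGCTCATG
Cd44-201: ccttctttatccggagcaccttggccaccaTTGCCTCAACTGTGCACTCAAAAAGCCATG
Cd44-203 lacks the variable exons of the extracellular stem and encodes 365 residues from 9 exons, Cd44-207 encodes 577 residues from 14 exons, and Cd44-201 encodes 780 residues from 19 exons. Gfap-201 encodes 430 residues and Gfap-202 encodes 428.

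The first question was how the 10 genes stood in rd10 retinas against WT retinas. Each of the 10 was higher in all 3 rd10 DMSO libraries than in W1, W2 and W3, an order that 33.4% of 11696 genes also showed. Only 5 of the 10 were higher in all 3 than in all 4 libraries labelled WT, against 4.41% of genes. These were Tagln2, Serpina3n, Timp1, Lcn2 and Osmr. Against the range of all 6 rd10 libraries, W4 lay inside for 7 members and below for Serpina3n, Lcn2 and Osmr, and it lay inside for 76.2% of all genes. Since the genes were picked with their levels in these retinas known, nothing is read from these shares. The levels below are the deposited CPM, scaled by library and not by gene length.

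**Figure D1:**
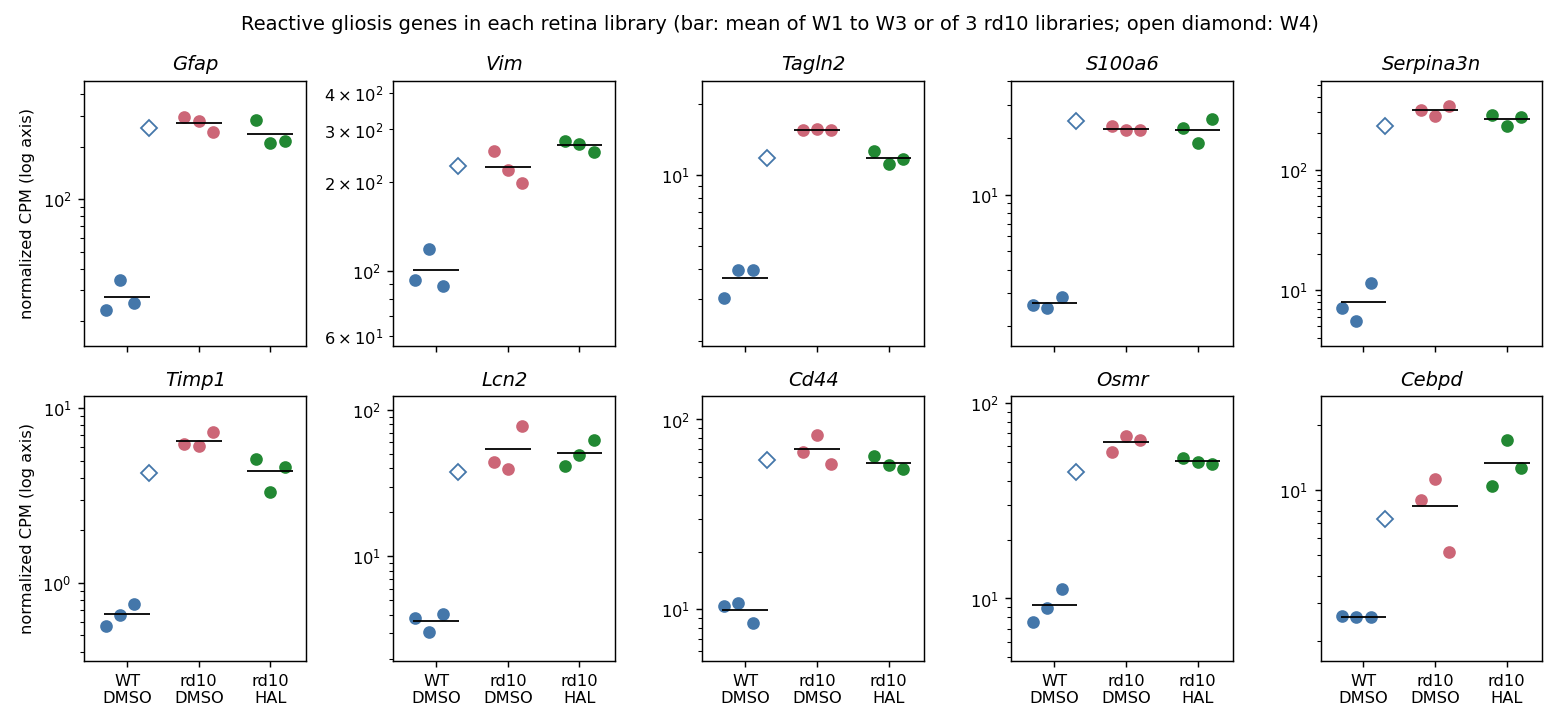
Normalized CPM (log axis, 1 panel per gene with its own range) of the 10 genes in each library, by group. Each point is 1 library, bars are the means of W1 to W3 and of the 3 rd10 libraries of each treatment, and the open diamond is W4, which lies inside the rd10 range in 7 of 10 panels, below it for Serpina3n, Lcn2 and Osmr, and above W1 to W3 in all (Gfap 257 in W4, 23.05 to 34.4 in W1 to W3).

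Among the filament genes, Gfap, the intermediate filament protein that defines reactive Müller glia, was at 23.05, 34.4 and 25.4 normalized CPM in W1 to W3. It was at 257 in W4, at 298, 280 and 243 in D1 to D3, and at 286, 211 and 217 in H1 to H3. All 7 of the latter libraries were far above W1 to W3 and did not overlap them. Vim, the other main filament protein of Müller glia, was at 93.0, 118 and 89.0 in W1 to W3, at 225 in W4, at 254, 218 and 198 in D1 to D3, and at 273, 269 and 253 in H1 to H3. Vim was the most abundant member in WT retinas and the one with the smallest relative difference. The log2 fold change (rd10 DMSO against WT, edgeR) of Gfap was 1.69 ± 0.88 (SE) with all 4 WT libraries and 3.32 ± 0.16 without W4, and that of Vim was 0.77 ± 0.33 and 1.17 ± 0.14.

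Serpina3n, a secreted inhibitor of serine proteases and an acute phase protein, had the widest contrast of the 10. It was at 7.15, 5.47 and 11.4 normalized CPM in W1 to W3, at 228 in W4, at 314, 278 and 340 in D1 to D3, and at 282, 231 and 272 in H1 to H3. The mean of D1 to D3 was 38.8 times that of W1 to W3, and the log2 fold change was 2.30 ± 1.31 (SE) with W4 and 5.31 ± 0.24 without it. The mouse genome holds a cluster of near-identical relatives of this gene, between which reads could be split. None of the 9 relatives listed was in the gene table, and together they had 15.0 to 60.5 transcript counts per library, where Serpina3n had 109 to 11149. Lcn2, which encodes lipocalin 2, a secreted protein that binds iron carriers, was at 3.79, 3.06 and 4.04 in W1 to W3, at 37.8 in W4, at 43.9, 39.8 and 77.5 in D1 to D3, and at 41.5, 49.5 and 62.2 in H1 to H3. D3 was the highest of the 10 libraries for Lcn2. Its log2 fold change was 2.13 ± 0.93 (SE), and 3.90 ± 0.29 without W4.

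Timp1, a secreted inhibitor of matrix metalloproteinases, was the scarcest of the secreted members, with 12 to 13 counts in W1 to W3 and up to 243 in the other 7 libraries. Its level was 0.568, 0.653 and 0.760 normalized CPM in W1 to W3, 4.25 in W4, 6.22, 6.05 and 7.33 in D1 to D3, and 5.16, 3.33 and 4.63 in H1 to H3. With its counts appended to the gene table, a step chosen after seeing the data, its log2 fold change was 2.03 ± 0.73 (SE), and 3.32 ± 0.24 without W4. Of 9 tested relatives among the TIMP inhibitors and the matrix metalloproteinases, 0 passed the test with W4 and 7 were higher without it (edgeR, adjusted p under 0.05). Timp2 was at a log2 fold change of 0.92 ± 0.35 (adjusted p = 0.187), and 1.38 ± 0.08 without W4 (adjusted p = 2.2e-05), and Mmp2, a gelatinase, at 0.97 ± 0.39 and 1.42 ± 0.20.

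Cd44, the cell surface receptor for hyaluronan on Müller cell processes, was at 10.4, 10.7 and 8.48 normalized CPM in W1 to W3, at 60.9 in W4, at 67.5, 82.7 and 58.2 in D1 to D3, and at 64.1, 57.3 and 54.6 in H1 to H3. W4 was close to the rd10 libraries, and D2 was the highest. The log2 fold change of Cd44 was 1.61 ± 0.71 (SE), and 2.83 ± 0.16 without W4. Of 7 genes of CD44 ligands and matrix that were tested, 0 passed the test with W4 and 4 were higher without it, namely Fn1, Tnc, Ncan and Spp1. Fn1, the matrix glycoprotein fibronectin, was at a log2 fold change of 0.83 ± 0.36 with W4 and 1.30 ± 0.09 without it (edgeR, adjusted p = 0.188 and 3.1e-05).

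Osmr, the receptor subunit that binds oncostatin M and pairs with gp130, was at 7.62, 8.99 and 11.2 normalized CPM in W1 to W3, at 44.6 in W4, at 56.5, 67.6 and 64.8 in D1 to D3, and at 52.5, 49.7 and 48.5 in H1 to H3. The 3 halofantrine libraries lay between W4 and the 3 DMSO libraries of rd10. The log2 fold change of Osmr (rd10 DMSO against WT) was 1.79 ± 0.62 (SE), and 2.78 ± 0.15 without W4. Cebpd, a transcription factor induced by STAT3 in acute phase responses, had the lowest mean level per length. Cebpd was at 2.60, 2.56 and 2.57 in W1 to W3, at 7.36 in W4, at 8.94, 11.2 and 5.17 in D1 to D3, and at 10.4, 17.0 and 12.7 in H1 to H3. W1 to W3 were nearly equal, while the 6 rd10 libraries had the widest relative spread of any member (coefficient of variation 36.1%). Its log2 fold change was 1.16 ± 0.48 (SE), and 1.75 ± 0.29 without W4.

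The signalling genes that link receptors such as Osmr to targets such as Cebpd were read from a list of 15 tested genes of gp130, JAK and STAT3 signalling, and 0 passed the test with W4. Without W4, 9 were higher and 2 lower. Stat3, the transcription factor itself, was at 76.3, 74.3 and 82.5 normalized CPM in W1 to W3, at 161 in W4 and at 184, 216 and 250 in D1 to D3. Its log2 fold change was 1.14 ± 0.30 (edgeR, adjusted p = 0.187), and 1.49 ± 0.11 without W4 (adjusted p = 4.4e-05). Socs3, the feedback inhibitor that STAT3 induces, was at 1.96 to 3.50 in W1 to W3, 15.6 in W4 and 15.7 to 20.6 in D1 to D3. Its log2 fold change was 1.54 ± 0.70 with W4 (edgeR, adjusted p = 0.189) and 2.69 ± 0.22 without it (adjusted p = 6.4e-05). Pias3, which encodes an inhibitor of STAT3, was the opposite case. It was at 172, 180 and 175 in W1 to W3, at 46.3 in W4 and at 48.2, 50.2 and 67.9 in D1 to D3, and its log2 fold change was -1.37 ± 0.46 with W4 and -1.66 ± 0.13 without it (adjusted p = 4.9e-05). The 13 rod markers were also lower in the fit without W4 (median -3.29), and whether Pias3 followed them was not tested. The kinase genes Jak1, Jak2 and Tyk2 did not pass the test in either fit, with log2 fold changes of 0.02, 0.04 and 0.06 without W4. Of the C/EBP relatives, Ddit3 fell by 0.35 on the log2 scale without W4 (adjusted p = 0.0086), and Cebpg was at 0.04 and did not pass.

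S100a6, a small calcium-binding protein, was at 2.60, 2.51 and 2.87 normalized CPM in W1 to W3, at 24.5 in W4, at 23.1, 22.0 and 22.0 in D1 to D3, and at 22.6, 18.8 and 25.1 in H1 to H3. W4 was within the rd10 range, which H2 and H3 bounded. Tagln2, the actin-binding protein transgelin 2, was at 3.04, 3.99 and 3.99 in W1 to W3, at 11.8 in W4, at 15.4, 15.6 and 15.6 in D1 to D3, and at 12.6, 11.2 and 11.7 in H1 to H3. Of the members, it had the smallest relative spread among the 3 rd10 DMSO libraries, with a mean of 15.5 ± 0.09 (SD, n = 3). The log2 fold change was 1.44 ± 0.85 (SE) for S100a6 and 1.44 ± 0.47 for Tagln2, and 3.09 ± 0.11 and 2.10 ± 0.14 without W4.

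Of 11 tested S100 and annexin relatives, 0 passed with W4 and 11 were higher without it (edgeR, adjusted p under 0.05). S100a10, the partner of annexin A2, was at a log2 fold change of 0.85 ± 0.27 (adjusted p = 0.187), and 1.16 ± 0.11 without W4 (adjusted p = 0.00012). Anxa1, an annexin with anti-inflammatory action, was at 0.83 ± 0.26 and 1.15 ± 0.10, and S100b, a glial calcium-binding protein, at 0.66 ± 0.20 and 0.86 ± 0.10. Of 13 tested filament and cytoskeleton genes, 0 passed with W4 and 9 were higher without it. Nes, the filament protein nestin, was at 0.57 ± 0.22 with W4 and 0.76 ± 0.16 without it, Flna, an actin crosslinker, at 0.57 ± 0.22 and 0.81 ± 0.10, and Tpm4 at 0.48 ± 0.14 and 0.57 ± 0.12. Synm, which encodes synemin, was at -0.16 without W4 and did not pass.

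Lists of reactive astrocyte genes that hold none of the 10 were read in the same way. Of the 6 genes of the pan-reactive list, 3 were in the gene table and tested, of which 0 passed with W4 and 3 were higher without it. Steap4, a metalloreductase, was at 0.946, 1.56 and 0.819 normalized CPM in W1 to W3, at 14.7 in W4 and at 19.7, 21.1 and 13.1 in D1 to D3, with a log2 fold change of 1.97 ± 0.99 (edgeR, adjusted p = 0.205) and 4.03 ± 0.29 without W4. Cp, the copper carrier ceruloplasmin, was at 0.83 ± 0.40 and 1.38 ± 0.09, and S1pr3 at 0.83 ± 0.49 and 1.48 ± 0.23. The list called A1-type had 11 genes, of which 6 were in the gene table. Of these, 6 of 6 passed without W4 and 0 with it, H2-D1 and H2-T23, class I histocompatibility genes, at 1.41 ± 0.11 and 1.59 ± 0.25. The list called A2-type had 12 genes, of which only 3 were in the gene table, so most of it could not be read. Of these, 3 of 3 passed without W4 and 0 with it, Clcf1, a cytokine of the interleukin 6 family, at 1.17 ± 0.16 and Sphk1 at 0.72 ± 0.13.

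Over all role lists, 68 genes other than the members were tested between rd10 DMSO and WT. With W4, 0 of 68 passed (edgeR, adjusted p under 0.05), 28 had an unadjusted p under 0.05, where 26.6% of all genes did, and DESeq2 called 2, Stat3 and Pias3, where it called 5.04% of all genes. The median log2 fold change of the 68 was 0.59, against -0.02 over all 11698 genes. Without W4, 51 were higher, 3 were lower (Pias3, Lifr and Ddit3) and 14 did not pass, with a median of 0.86, where 32.3% of 11696 genes were higher and 29.9% lower. Of the members in the gene table, 0 of 9 passed with W4, as did 0% of all genes, with 3 of 9 at an unadjusted p under 0.05 (26.6% of all genes) and 0 of 9 called by DESeq2 (5.04%). Without W4, 9 of 9 passed, against 62.2% of all genes. Their median log2 fold change was 1.61 with W4 and 2.83 without it, where the median over all genes was -0.02 and -0.01. The members were chosen with their values in this contrast known, so nothing is read from those counts and medians. The labels do not say outright that each library came from another mouse, so these p-values measure the spread between the libraries of a group, which may in part be technical.

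**Figure D2:**
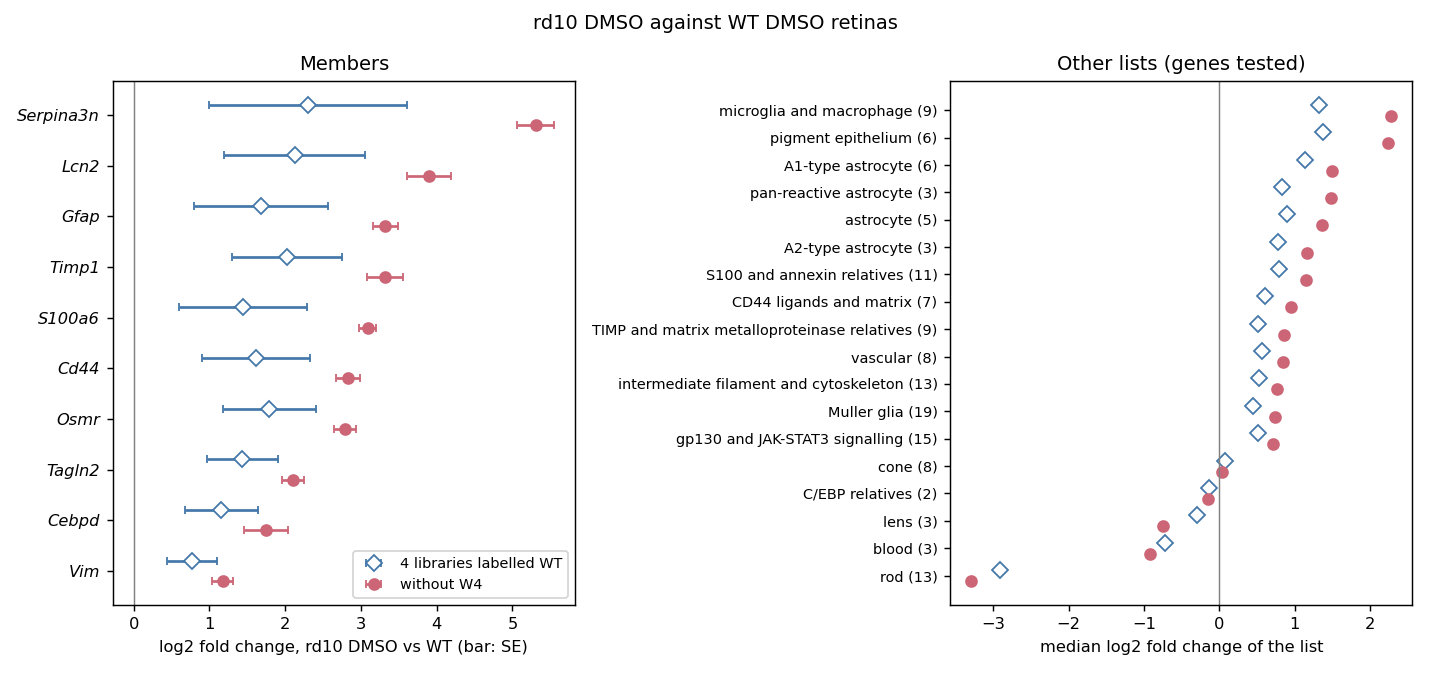
Log2 fold change of rd10 DMSO against WT DMSO retinas. Left, the 10 members with their SE, with all 4 libraries labelled WT (open diamonds) and without W4 (filled circles). Right, the median of each other list in the same pair of fits, with the number of genes tested in brackets. All 10 members lie to the right of 0 in both fits, and the rod list is the lowest, at -3.29 without W4.

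Markers of other cells moved in the same contrast, and their part in the members' difference was not tested. Without W4, 18 of 19 Müller glia markers were higher with a median log2 fold change of 0.74, among them Kcnj10, a potassium channel, at 1.17 ± 0.11, and Slc1a3, a glutamate transporter, at 0.77 ± 0.08. Their summed level was 5733 to 5940 normalized CPM in W1 to W3, 11509 in W4 and 9636 to 11559 in D1 to D3. The astrocyte list had 4 of 5 genes higher and summed to 88.3 to 147 in W1 to W3, 289 in W4 and 225 to 338 in D1 to D3. Gja1 of that list was at 5.49, 5.06 and 44.8 in W1 to W3 and 72.3, 9.88 and 56.9 in D1 to D3. It was high in the same of these libraries as the pigment epithelium marker Tyrp1 (3.64, 3.41 and 15.6, then 67.5, 9.52 and 98.3). Of 16 microglia and macrophage markers, 9 were in the gene table and 9 of those were higher, with a median of 2.28 and a sum of 57.0 to 65.1 in W1 to W3, 241 in W4 and 239 to 268 in D1 to D3. Aif1, Cd68, P2ry12 and Tmem119, which define that type, were not in the gene table. The pigment epithelium list summed to 41.3 to 215 in W1 to W3, 339 in W4 and 157 to 608 in D1 to D3, with 3 of 6 higher. The vascular list had 6 of 8 higher, with sums of 362 to 403, 810 and 646 to 806. Its most abundant gene, Kdr, was at 153 to 170, 452 and 257 to 451. Pecam1 (8.95 to 11.7 in W1 to W3, 9.06 to 14.7 in D1 to D3) and Cldn5 (5.67 to 7.67 and 6.10 to 10.3) overlapped between these groups. All 13 rod markers were lower, with a median of -3.29, as were 3 of 3 blood markers (-0.92). Of 8 cone markers 2 were higher and 2 lower. Of 3 lens markers 1 was higher, namely Cryab (25.4 to 31.7 in W1 to W3, 64.4 to 77.1 in D1 to D3). With W4 in the fit, 0 genes of these lists passed.

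Levels were compared between the members only after division by transcript length (TPM over the transcripts, with GENCODE M21 lengths). In W1 to W3 the order was Vim at 127 ± 24.9 TPM (SD, n = 3), Gfap at 21.7 ± 4.87, S100a6 at 8.29 ± 1.28, Lcn2 at 8.22 ± 1.14, Serpina3n at 8.01 ± 3.04, Cd44 at 5.88 ± 0.62, Tagln2 at 5.67 ± 0.72, Osmr at 3.96 ± 0.86, Timp1 at 1.57 ± 0.22 and Cebpd at 1.53 ± 0.20. Vim and Gfap stood apart from the rest. From S100a6 to Osmr each gene's range overlapped that of the next, Serpina3n (5.47 to 11.4) also overlapping Tagln2 (4.85 to 6.18), and neighbours in that order did not differ beyond their spread. Timp1 and Cebpd lay below and overlapped each other. In the 6 rd10 libraries, Vim (322 to 392 TPM) and Serpina3n (278 to 415) overlapped at the top. Serpina3n thus went from a range shared with Cd44 and Tagln2 in W1 to W3 to one shared with Vim. Gfap (198 to 286) overlapped both Serpina3n and Lcn2 (112 to 214), S100a6 (75.0 to 106) lay below these, and Cd44 (36.1 to 56.0) below S100a6. Osmr (26.3 to 46.0) overlapped Cd44, and Tagln2 (18.6 to 28.7), Timp1 (9.64 to 21.8) and Cebpd (5.27 to 11.8) followed, each overlapping the gene before it.

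The second question was whether halofantrine changed these genes in rd10 retinas. Of 9 members, 0 passed (edgeR, adjusted p under 0.05), as did 0% of 11692 genes, with 4 of 9 at an unadjusted p under 0.05, and DESeq2 called 0 of 9 members and 0.0257% of genes (3). Over all genes, 557 (4.76%) had an unadjusted p under 0.05. The log2 fold change (HAL against DMSO) was negative for Tagln2 (-0.39 ± 0.09, SE), Osmr (-0.33 ± 0.08), Cd44 (-0.25 ± 0.13), Serpina3n (-0.24 ± 0.10), Gfap (-0.20 ± 0.14), Lcn2 (-0.06 ± 0.26) and S100a6 (-0.01 ± 0.11), and that of Timp1 was -0.58 ± 0.20. It was positive for Vim (0.25 ± 0.10) and Cebpd (0.64 ± 0.29). The median over the 9 was -0.20, against -0.0045 over all genes. S100a6 and Lcn2 changed sign in 3 of 13 alternative fits each, and the other members kept theirs in 13 of 13.

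The halofantrine libraries lay below all 3 DMSO libraries for Tagln2, Osmr and Timp1 and above them for 0 members, and 6.19% of 11696 genes lay wholly below. For the other 7 members the treatment groups overlapped. Tagln2 was at 11.2 to 12.6 normalized CPM with halofantrine and 15.4 to 15.6 with DMSO, and Osmr at 48.5 to 52.5 and 56.5 to 67.6. The batches were unevenly split over the treatments, so the difference was also read within each. In batch 1, H1 against the mean of D1 and D2, the difference in mean log2 of CPM plus 0.5 was -0.29 for Tagln2, -0.23 for Osmr and -0.23 for Timp1. In batch 2, the mean of H2 and H3 against D3, it was -0.43, -0.40 and -0.82. Each batch holds a treatment with 1 library only, too few for a test within it. In a fit with a batch term, log2 fold changes were -0.37 ± 0.10 for Tagln2, -0.32 ± 0.08 for Osmr, -0.56 ± 0.20 for Timp1, 0.31 ± 0.08 for Vim and -0.09 ± 0.06 for Gfap, and again 0 of 9 passed, as did 0% of 11698 genes. Cebpd was at 0.05 in batch 1 and 1.42 in batch 2, where D3 held the lowest rd10 level, 5.17.

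Of the 68 other role genes, 0 passed between halofantrine and DMSO, with 5 at an unadjusted p under 0.05, 0 called by DESeq2 and a median of -0.04. Among the genes with the smallest p of their lists were Junb, an immediate early gene, at 0.71 ± 0.34, Steap4 at -0.54 ± 0.23, Bcl3 at -0.39 ± 0.14, Timp3 at -0.35 ± 0.11, S100a10 at -0.32 ± 0.11 and Serping1, the C1 inhibitor, at -0.25 ± 0.09, each with an adjusted p of 0.883. Junb was at 8.03, 13.7 and 10.9 normalized CPM in H1 to H3 and 7.68, 8.42 and 3.39 in D1 to D3, with D3 lowest as for Cebpd. The Müller glia markers had a median of 0.06 (10 of 19 above 0) and the microglia markers of -0.06 (2 of 9). The astrocyte markers had a median of -0.17 (1 of 5), and of -0.16 with the batch term. The 3 blood markers were all at a fold change above 0 (median 1.45), as were 8 of 8 cone markers (0.13) and 12 of 13 rod markers (0.13). With the batch term, 2 of 13 rod markers were above 0, with a median of -0.22, and the blood median was 0.60. No gene of these lists passed the test in either fit. The pigment epithelium markers, with Dct at -1.80 ± 0.58 and Tyrp1 at -1.99 ± 0.70 (adjusted p = 0.883), summed to 144 to 219 with halofantrine and 157 to 608 with DMSO. Whether any of these lists bears on the members was not tested.

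Against WT, the halofantrine libraries used the same WT controls as the comparison above, so the pair of comparisons is not independent. The log2 fold change of rd10 HAL against WT was 2.05 ± 1.32 (SE) for Serpina3n, 2.06 ± 0.92 for Lcn2, 1.81 ± 0.44 for Cebpd, 1.49 ± 0.90 for Gfap, 1.47 ± 0.62 for Osmr, 1.43 ± 0.86 for S100a6, 1.37 ± 0.72 for Cd44, 1.04 ± 0.47 for Tagln2 and 1.02 ± 0.33 for Vim. Without W4 these became 5.06, 3.83, 2.38, 3.11, 2.45, 3.07, 2.57, 1.69 and 1.41. With W4, 0 of 9 passed, against 0.00855% of 11699 genes, with 2 of 9 at an unadjusted p under 0.05 (34.6% of genes), and DESeq2 called Vim and Cebpd (19% of genes). Without W4, 9 of 9 passed, against 71.9% of genes.

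**Figure D3:**
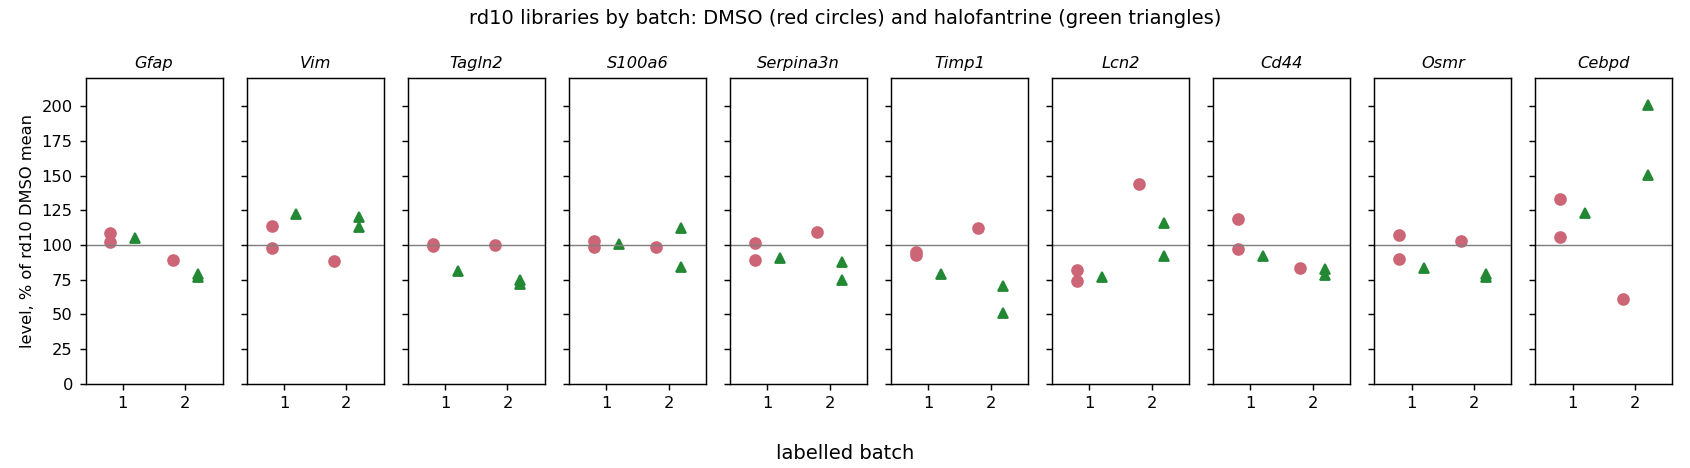
Level of each member in the 6 rd10 libraries, as a percentage of the mean of the 3 rd10 DMSO libraries (grey line at 100), by labelled batch. Circles are DMSO and triangles halofantrine. Triangles lie below all circles for Tagln2, Timp1 and Osmr, and for Lcn2 all batch 2 libraries lie above all batch 1 libraries.

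The third question was how the members differed between the batches of rd10 retinas. The batches did not overlap for 3 members. Lcn2 was at 39.8 to 43.9 normalized CPM in batch 1 and 49.5 to 77.5 in batch 2, Gfap at 280 to 298 and 211 to 243, and Cd44 at 64.1 to 82.7 and 54.6 to 58.2. Among all genes, 15% were wholly higher in batch 2 and 13% wholly lower. With treatment in the model, the log2 fold change of batch 2 against batch 1 was 0.65 ± 0.13 (SE) for Lcn2, -0.34 ± 0.06 for Gfap and -0.29 ± 0.09 for Cd44, and 2 of 9 members passed (Lcn2 and Gfap), where 4.63% of 11698 genes did. The members were chosen with their levels in these batches known, so nothing is read from that count. The count was between 0 and 3 when 1 library was left out, in fits for which the share of all genes is not given here. It was 0 without D1, 0 without D3 and 0 without H3. It was 3 without H1, when Cebpd was counted as well. Its log2 fold change was -0.98 in that fit, -0.16 with all libraries and 0.52 without D3, so that its direction hung on single libraries. Lcn2 and Gfap thus differed in opposite directions between the same libraries.

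Rod markers moved with the batches, with 13 of 13 higher in batch 2 (median 1.23), and their part in the difference of the members was not tested. Of the Müller glia markers 4 of 19 were lower, and of the microglia markers 0 of 9 passed. Of the cone markers 2 of 8 were higher (7 of 8 at a fold change above 0), and of the vascular markers 1 of 8 was lower. The astrocyte, pigment epithelium, blood and lens lists had 0 genes past the test. Of the 68 role genes, 4 passed, where 4.63% of 11698 genes did, and nothing is read from that count. Pias3 was higher (0.36 ± 0.07), and 3 genes were lower. These were Steap4 at -0.61 ± 0.09, Cntfr, the receptor of ciliary neurotrophic factor, at -0.56 ± 0.06, and Stat5b at -0.47 ± 0.09. The adjusted p (edgeR) was 0.037 for Pias3, 0.016 for Steap4, 0.0053 for Cntfr and 0.037 for Stat5b. When 1 library was left out, between 1 and 20 role genes passed (20 without H1), and of these 4 all remained without H1, Cntfr and Steap4 without D1, Cntfr and Pias3 without H2, and Cntfr alone without D2, D3 or H3. DESeq2 called 14, these 4 among them, and limma-voom called 3, without Pias3. The share of all genes in these alternative fits is not given here, so nothing is read from their counts.

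Over the 10 libraries, the 45 pairs of members had correlations of log2 CPM between 0.78 and 0.99 (median 0.97), and the 10 libraries fall into 2 clusters, so these values describe that split. Over the 6 rd10 libraries alone the pairs lay between -0.96 and 0.95 (median 0.12), with members that moved together and members that moved oppositely. Serpina3n and Timp1 were at 0.95 and Tagln2 and Osmr at 0.90, while Serpina3n and Cebpd were at -0.96 and Timp1 and Cebpd at -0.90. These points share 6 libraries and their batches. Of 11687 genes, 21.4% had a correlation over 0.9 with the mean standardised level of the members across the 10 libraries. The 10 most alike were Mras (0.999), Vat1l, Axl, Csf1, Dtna, Arhgef40, Osbpl3, Syt11, Pcdhac2 and B4galt6, and the 5 most opposed were Gm11696 (-0.998), Osbpl8, Ncapd3, Tmem237 and Fam3c. Csf1, the growth factor of microglia, was at 3.74 to 4.17 normalized CPM in W1 to W3, 18.0 in W4 and 15.98 to 20.9 in the rd10 libraries. Axl, a receptor kinase of phagocytes, was at 13.4 to 15.0, 42.9 and 41.9 to 50.8. Within the 6 rd10 libraries Csf1 kept a correlation of 0.92 with the members' mean, while Mras had 0.20 and Pcdhac2 -0.70.

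The last question was whether the members' transcripts changed in proportion. For 8 members with at least 2 transcripts at a mean of 10 counts, the share of the gene's counts on its most abundant transcript was compared between the 6 rd10 and the 4 WT libraries. None of the 8 passed an exact two-sided permutation test after adjustment over the 8, and 2 had a raw p under 0.05. The smallest raw p possible was 0.0095, so that after adjustment no share could have passed alone. Without W4 that smallest p was 0.024, 2 of the 8 reached it, and again none passed after adjustment. The transcript Lcn2-201, which encodes 200 residues, held 67.3%, 56.6% and 58.7% of the Lcn2 counts in W1 to W3, 96.2% in W4 and 94.8% to 97.0% in the rd10 libraries (exact permutation p = 0.029, adjusted 0.152, and 0.024 and 0.095 without W4). W1 to W3 did not overlap the other 7 libraries. In levels, Lcn2-201 was at 1.73 to 2.55 normalized CPM in W1 to W3 and 37.7 to 75.2 in the rd10 libraries. The transcript Lcn2-206, which M21 starts further upstream, held 28.1% to 38.3% of Lcn2 counts in W1 to W3, 1.52% in W4 and 1.40% to 2.23% in rd10. Its level was 1.06 to 1.45 in W1 to W3, 0.574 in W4 and 0.558 to 1.14 in the rd10 libraries, so the rise of Lcn2 was carried by Lcn2-201. Tagln2-202 went from 85.1% ± 3.84 (SD, n = 4) to 92.4% ± 4.82 (SD, n = 6) (exact permutation p = 0.038, adjusted 0.152). Without W4 the WT share was 83.5% ± 2.62 (SD, n = 3), with exact permutation p = 0.024, adjusted 0.095.

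For Cd44, the long transcript Cd44-201 had 0 of 220, 0 of 214 and 0 of 145 counts in W1 to W3, which allow shares of up to 1.36%, 1.40% and 2.07%, for counting error only. It held 5.63% of Cd44 counts in W4 and 2.56% to 10.03% in the rd10 libraries, all above those limits, at 1.64 to 5.84 normalized CPM. Cd44-207 held 53.8%, 41.3% and 33.9% in W1 to W3, 50.5% in W4 and 50.0% to 55.6% in rd10 (exact permutation p = 0.076, adjusted 0.152, and 0.095 and 0.254 without W4), and the short Cd44-203 held 44.0% to 66.1% in W1 to W3 and 38.2% to 46.2% in rd10. Gfap-201 held 92.5% ± 0.48 (SD, n = 6) of Gfap counts in rd10 and 91.9% ± 1.54 (SD, n = 4) in WT, a difference of 0.58 percentage points (0.66 without W4) that was within the spread between libraries. The Gfap-201 and Gfap-202 levels were 9.34 and 8.35 times those of W1 to W3. S100a6-201 held 63.4% ± 4.68 (SD, n = 6) in rd10 and 80.8% ± 17.5 (SD, n = 4) in WT (80.5% without W4), where W1 to W3 ranged from 55.9% to 95.6% on 49 to 55 counts. Kallisto shares counts between transcripts by estimation, and the low WT counts limit these shares.

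**Figure D4:**
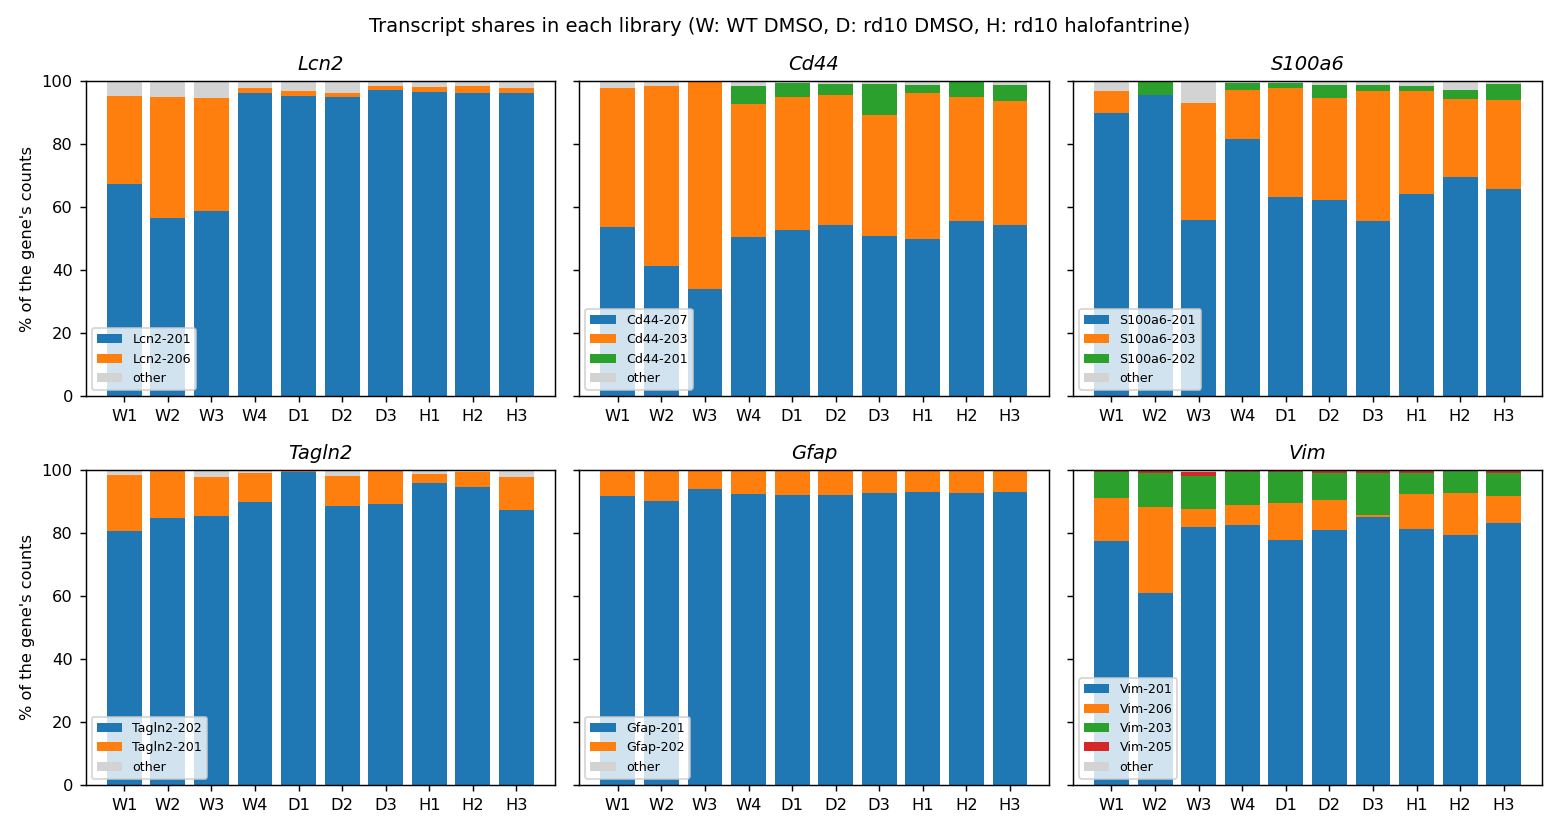
Share of each gene's counts (%) on its transcripts with a mean of at least 10 counts, in each library, for 6 members. W is WT DMSO, D rd10 DMSO and H rd10 halofantrine, and grey is all other transcripts. For Lcn2, W1 to W3 show 56.6% to 67.3% on Lcn2-201 and the other libraries 94.8% to 97.0%, and the green Cd44-201 band is absent in W1 to W3.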

How the data were processed

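The 10 libraries of mouse retinal RNA were analysed in the groups that the labels give. The authors prepared stranded libraries from polyA RNA, pseudoaligned the reads with kallisto to Ensembl transcripts (GRCm39 in the submitters' processing notes), imported them with tximport, and deposited estimated counts per transcript and per gene. The deposited CPM values equal those counts multiplied by a single factor for each library, and served as a scaled signal. The authors' table of the halofantrine comparison (fold changes, p-values) was not used. Estimated counts were rounded, filtered by filterByExpr, scaled by TMM and fitted by edgeR 4.0.16 (quasi-likelihood, Benjamini-Hochberg adjustment, threshold 0.05) in R 4.3.3 on the groups compared, with treatment as a term for batches. Alternatives were DESeq2 1.42.0, limma-voom 3.58.1, other scalings, no filter, all libraries, a batch term, batch 1 only, and leaving out each library. Scripts were tested on simulated data. Likeness used log2 of CPM plus 0.5 for genes at a mean CPM of at least 1. Transcript shares were tested by exact permutation (scipy 1.17.1). Depth was 15512212 to 38160436 counts per library. Transcript lengths came from GENCODE M21, which held 97.4% to 97.7% of counts.

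The members, the lists and the tests were chosen with earlier results of these data known. The rule for named genes took the 10 members, up to 3 genes per list with the smallest p in rd10 DMSO against WT, up to 2 in halofantrine against DMSO, and the 10 most and 5 least alike genes. Not every gene it takes is reported, and Socs3, Lifr, Synm, Cebpg, Spp1, Jak1, Jak2, Tyk2, Cntfr and Stat5b were named after their values were seen. A few items are not reported here.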

Additional observations from a re-analysis of the deposited data

Results flagged for a closer look

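Of 27 sets of 4 WT values checked for a lone sample (10 members, 8 transcript shares, 9 cell marker sums), 14 had 1 sample far from the other 3, where chance alone flags about 1 in 20. The members were chosen with their levels and the state of W4 known, so this count describes W4 and is no further evidence. The gap to the nearest sample, as a share of the WT range, exceeded Dixon's 95% limit for Cebpd (0.991), S100a6 (0.984), Serpina3n (0.973), Lcn2 (0.972), Cd44 (0.957), Gfap (0.951), Timp1 (0.948), Osmr (0.902) and Tagln2 (0.891). Among the marker sums it did so for Müller glia (0.964), microglia and macrophage (0.956), rod (0.945), vascular (0.909) and lens (0.869) markers. In each of these the lone sample was W4, the rod sum being low and the others high. The lens sum in W4 was almost all Cryab (74.2 of 74.5 normalized CPM). Cryaa, Cryba1 and Crybb2 were at 0, 0.112 and 0.222 in W4, below W1 to W3 (lowest 0.853, 0.332 and 0.426). Vim, at 0.784, was the member below the limit.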

How the results depend on the processing

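No paired analysis was possible because the labels give no replicate number, litter or day that ties single libraries of different groups, and the set names in the titles are never shared by WT and rd10. Within rd10 the shared set name follows batch 1, for which a batch term was fitted. Leaving out W4 changed the counts most. In rd10 DMSO against WT, members called were 0 in the fit with W4 and between 0 and 9 when 1 library was left out (9 without W4), and the 68 role genes called were 0 and between 0 and 54 (54 without W4), with 2 under DESeq2. In rd10 HAL against WT, members called were 0, between 0 and 9 when 1 library was left out (9 without W4), and 2 under DESeq2. For the batches the members called were 2, and between 0 and 3 when 1 library was left out (0 without D1, D3 or H3, 1 without D2 or H2, 3 without H1). For fits that leave out a library other than W4, the share of all genes is not given here, and nothing is read from their counts. Of single values over all alternatives, 584 stayed within the spread between replicates or kept their direction and side of the test, 23 moved further, 16 of them without W4, and 3 transcript shares turned their sign. Fold changes between the batches that lay near 0 also changed sign, namely Serpina3n (0.01, and -0.16 without D3), Cebpd (-0.16, and 0.52 without D3), Timp1 (-0.07, and 0.24 without H1), S100a6 and Osmr. The shares were Osmr-201 at -0.40 percentage points in rd10 DMSO only and between -1.16 and 2.02 when 1 library was left out (-1.16 without W1), and Gfap-201 at between -0.034 and 1.21 (-0.034 without W2), and neither had passed a test. The low counts of Timp1, S100a6 and Cebpd in WT limit the precision of their folds.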
